A study of Homo sapiens with 30 samples.

Results

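Rh30 is an established cell line from an alveolar rhabdomyosarcoma, a childhood tumour of muscle lineage that carries the fusion gene PAX3-FOXO1. The comparison described here is that of 72 h of dTAG with DMSO, the solvent control, in Rh30 cells whose fusion protein carries an FKBP tag. It rests on 4 of the 30 samples in the series, chosen by their labels: a pair in DMSO and a pair in 500 nM dTAG for 72 h. Each pair was deposited as 1 column of estimated counts, so 2 columns are compared over all genes. They are called pooled columns here, and the labels do not state whether the pair was summed or averaged. Columns of the same line after 2, 6 and 24 h of dTAG show the course between them. All groups are Rh30 cells grown in the same medium, and RNA is the readout used here. A second line, in which FKBP is fused to wild-type FOXO1, went through the same 5 conditions and served to set the 72 h values beside. Untreated libraries, 10 in all, came from parental Rh30 and from clones 4, 10, 11 and 12 of the tagged fusion line. The sources used here do not give which clone became the time-course line, or whether a tagged line is 1 clone. The treatment protocol in the labels of the 72 h samples also reads DMSO, so the treatment characteristic was used for the groups.

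PAX3-FOXO1 joins the DNA-binding domains of PAX3, a factor of muscle and neural crest progenitors, to the activating end of FOXO1. In fusion-positive tumours it sits at enhancers together with the myogenic factors MYOD1 and MYOG, and the cells express muscle regulators without completing muscle differentiation. In normal myogenesis the MYOD family and MEF2 factors switch on the sarcomere, the contractile unit of actin thin filaments and myosin thick filaments held between Z-discs and M-bands. dTAG is a small molecule that brings FKBP-tagged proteins to a ubiquitin ligase, which marks them for degradation. No protein was measured, so loss of the fusion stands here for dTAG given to the tagged line.

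The promoters of 4 of the genes with large 72 h values are shown first, because the reading of the 72 h column turns on muscle genes and E-boxes are the sites that factors of the MYOD family bind. Each sequence is the RefSeq window (GRCh38.p14) of the 250 bases before the annotated start, 5′ to 3′ on the gene's strand, with the MYOD-type E-box CAGCTG in capitals. This motif is the same on both strands.

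MYOM3: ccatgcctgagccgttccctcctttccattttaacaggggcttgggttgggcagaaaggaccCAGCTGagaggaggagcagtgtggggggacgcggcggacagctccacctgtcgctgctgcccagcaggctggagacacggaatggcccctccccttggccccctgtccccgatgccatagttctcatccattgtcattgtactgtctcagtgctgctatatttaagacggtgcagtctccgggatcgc
MYBPH: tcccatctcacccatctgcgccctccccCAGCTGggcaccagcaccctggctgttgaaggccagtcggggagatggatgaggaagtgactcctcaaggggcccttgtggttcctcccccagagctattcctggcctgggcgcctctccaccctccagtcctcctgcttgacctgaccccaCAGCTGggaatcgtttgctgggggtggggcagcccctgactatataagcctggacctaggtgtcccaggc
TRIM54: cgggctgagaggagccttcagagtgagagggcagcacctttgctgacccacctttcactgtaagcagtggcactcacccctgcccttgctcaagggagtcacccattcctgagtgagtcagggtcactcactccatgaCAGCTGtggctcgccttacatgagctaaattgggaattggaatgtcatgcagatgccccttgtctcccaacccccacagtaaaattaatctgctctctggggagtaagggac
CKM: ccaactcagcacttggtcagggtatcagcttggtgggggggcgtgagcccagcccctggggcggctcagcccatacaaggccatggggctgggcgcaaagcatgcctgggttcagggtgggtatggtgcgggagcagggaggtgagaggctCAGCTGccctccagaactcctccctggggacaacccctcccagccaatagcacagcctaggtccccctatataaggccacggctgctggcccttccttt

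The window of MYOM3 lies at chr1:24112136-24112385 on the minus strand, and its E-box begins 188 bases before the start. MYBPH lies at chr1:203175827-203176076 on the minus strand and holds the motif 222 and 70 bases before the start. In TRIM54, at chr2:27282179-27282428 on the plus strand, it begins 112 bases before the start, and in CKM, at chr19:45322876-45323125 on the minus strand, 99 bases before it. The windows were picked for holding the motif. Of the 9779 measured genes with a window of this length, 13.0% hold CAGCTG. A comparison of this share between groups of genes is void, because fewer than 80% of the genes concerned have an entry in the promoter table (69.6% of the muscle genes that were higher at 72 h). Nothing about binding follows from a match.

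Total estimated counts were 29595555 in DMSO and 29587221 at 72 h, and all 10 time-course columns lay between 25863451 and 30466960. Pooled columns carry no replicate error, so no p-value is given for any gene and a size rule was used. Normalised counts are scaled between the columns of a line by the TMM method (trimmed mean of M values). A gene counts as higher or lower when its normalised count differs at least 2-fold from DMSO, after adding 2 counts to each value, and its mean over the 5 columns of the line is at least 50. Of 23262 genes 12334 met that minimum, and these are called measured. How far single libraries of one kind lie apart is seen in the untreated pairs, where 0.18% (parental) to 2.89% (clone 4) of 11695 genes differed at least 2-fold within a pair. Whether paired samples came from separate cultures is not stated in the labels. Intervals on a share of counts, where given, cover counting error only, and like the floor of 3 counts they take the deposited column as counted reads.

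The 2 h column of the fusion line stood apart in its leukocyte transcripts. Of 40 listed genes of the B lineage and of leukocytes, 13 were at 2 h at least 10 times, and at least 10 normalised counts, above every other column. MS4A1, the B-cell surface protein CD20, was listed at 222 at 2 h and at 0 in the other 4 columns. PTPRC, the pan-leukocyte phosphatase CD45, was at 186 at 2 h, 2.77 at 72 h and 0 in the others, and CD79A, of the B-cell receptor, at 124 at 2 h and 7.35 in DMSO. With the minimum mean taken without the 2 h column, a setting chosen after seeing the data, 427 genes were higher and 365 lower at 72 h. The part of these transcripts in the 2 h values was not tested.

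After 72 h, 428 of the 12334 measured genes (3.47%) were at least 2-fold higher than in DMSO. Another 373 (3.02%) were lower, which makes 801 genes or 6.49% in all. The counts of members past 2-fold in each list below are to be read beside these shares. The minimum mean was reached only through the 72 h column by 60 measured genes, and without them 390 were higher and 373 lower. Scaled by library totals instead, 346 were higher and 452 lower, and the median of all genes moved to -0.11 on the log2 scale. Of the 10 named genes with the largest increases 9 belong to the sarcomere or its assembly, and the 10th is NAV3, a microtubule-binding protein, from 58.9 to 1655 normalised counts. RELN, TACR3 and PRDM12, genes of neural development and signalling, were among the 10 named genes with the largest decreases. LGR5, of the Wnt pathway list, was another. The earlier columns held fewer past the same size. At 2 h, 46 (0.373%) stood higher and 35 (0.284%) stood lower. Of the 46, 5 are on the B lineage or leukocyte lists, and 9 reached the minimum only through the 2 h column. At 6 h there were 75 (0.608%) upwards and 152 (1.23%) downwards. At 24 h there were 170 (1.38%) upwards and 213 (1.73%) downwards. With the main scaling higher genes outnumbered lower ones at 72 h and not at 6 or 24 h, and with library totals the 72 h order was turned. At least 8-fold, 39 genes were higher and 21 lower at 72 h, and at least 32-fold, 7 and 2. The 2 are STATH and the read-through name BIVM-ERCC5, both listed at 0 at 72 h. In bulk RNA, a smaller number of cells of a type and less RNA per cell cannot be told apart.

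In the FOXO1-FKBP line, 72 h of dTAG left 6 of 11982 measured genes (0.0501%) at least 2-fold higher and 44 (0.367%) lower. The genes that were higher in the fusion line had a median log2 change of 0.07 in the FOXO1 line (333 of them measured there), and those that were lower had a median of -0.22 (314 genes). No gene list described below had more than 1 member past 2-fold in the FOXO1 line.

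**Figure D1:**
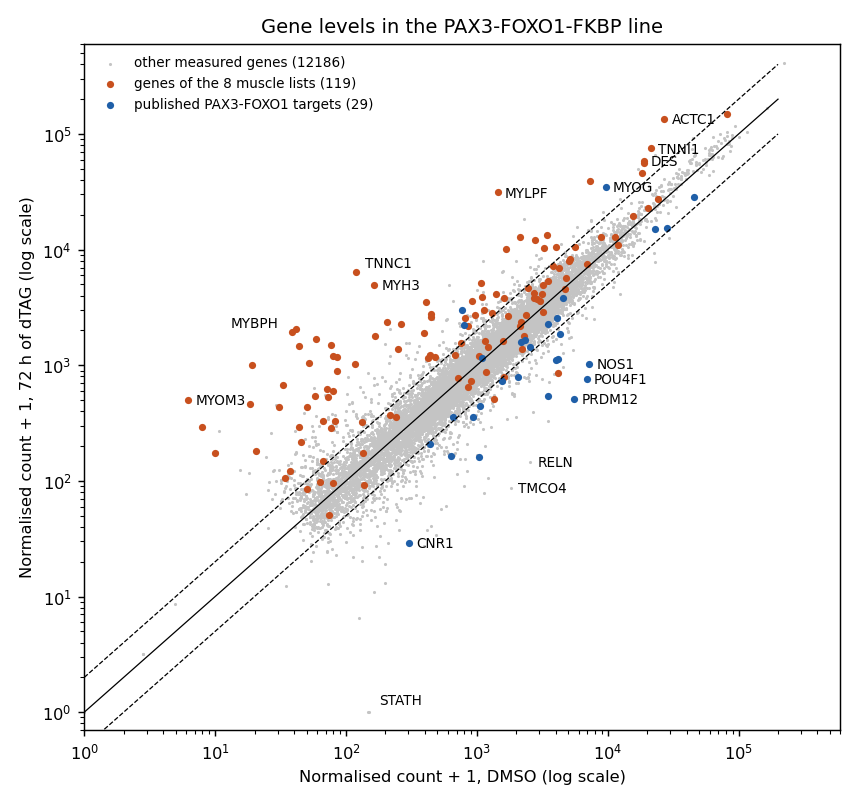
Normalised count plus 1 of each measured gene in DMSO (x axis, log scale) and after 72 h of dTAG (y axis, log scale) in the PAX3-FOXO1-FKBP line, 1 pooled column each. The solid line marks equal levels and the dashed lines 2-fold. Genes of the 8 muscle lists (orange) lie mostly above the upper dashed line and published fusion targets (blue) mostly below the solid line.

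PAX3 and FOXO1, the parents of the fusion, come first. PAX3 counts, which include reads of the fusion's PAX3 part, were 781 in DMSO and 485, 400.1, 494 and 402 after 2, 6, 24 and 72 h. The 72 h value was 1.94-fold lower than DMSO, short of the size rule, and the 72 h level of 13.1 CPM (counts scaled to the same column total) lay within the 10 untreated libraries (12.5 to 39.1). FOXO1, whose counts include reads of the fusion's FOXO1 part, stood at 3737 in DMSO and 3347, 4096, 5398 and 4586 after 2, 6, 24 and 72 h. In the DMSO column FOXO1 had 132 CPM, above all untreated libraries (25.8 to 84.5). The same column was above all 10 libraries for 24.5% of measured genes. Those libraries were counted and scaled separately, and what the gap before dTAG reflects was not tested. Because dTAG acts on protein, neither mRNA checks the labels. Markers of the labelled tumour line were present, with MYOD1 at 45980.5 and 28631 normalised counts and FGFR4, a receptor abundant in this tumour, at 28390.0 and 15365.

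Muscle genes were higher at 72 h across most parts of the contractile machinery. In 8 lists that cover the sarcomere, its assembly, calcium handling, the neuromuscular junction, the membrane and energy supply, 69 of 119 measured genes stood at least 2-fold above DMSO and 3 below it, with a median log2 change of 1.39 against -0.00 over all measured genes. The lists hold 156 genes, and the other 37 stayed under the minimum mean. Of the 119, 6 reached that minimum only through the 72 h column, and without them 63 of 113 were higher with a median of 1.34. In the FOXO1 line none of 109 was higher, 1 was lower, and the median was 0.03. The median of these genes in the fusion line was 0.18, 0.31, 0.57 and 1.39 at 2, 6, 24 and 72 h. Most of the distance was thus covered between the last 2 columns.

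As a share of all counts, the 156 muscle genes took 1.48% in DMSO, 1.70% at 2 h, 1.74% at 6 h, 2.15% at 24 h and 3.21% at 72 h (exact 95% binomial interval 3.20 to 3.22%). In the FOXO1 line the share was 1.24% in DMSO and 1.33% at 72 h. The 10 untreated libraries held 1.20 to 2.12%, with a median of 1.76%. The 72 h column of the fusion line was thus above all untreated libraries, and its DMSO column was within them. Its 24 h column (2.15%) was only just above the highest library (2.12%). The untreated libraries were counted and scaled separately, so a gap of that size does not place the 24 h column above them.

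**Figure D2:**
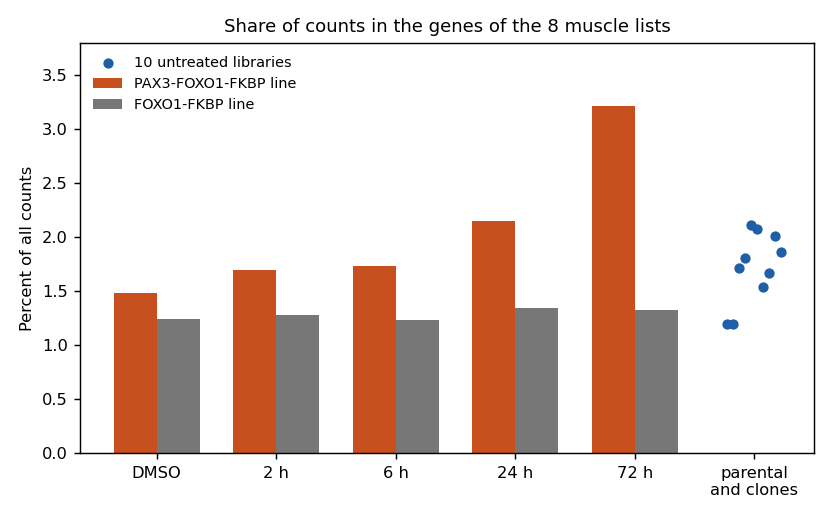
Percent of all counts that fell in the 156 genes of the 8 muscle lists, for each pooled column of both tagged lines (bars, no error bars because columns are pooled) and for each of 10 untreated libraries (points). The fusion line at 72 h stood at 3.21% and the highest untreated library at 2.12%.

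Thin filament genes, which encode the actin side of the sarcomere and its calcium switch, were higher for 12 of 15 measured members (median 1.84). TMOD1 reached the minimum mean only through the 72 h column, and without it 11 of 14 were higher (median 1.90). TNNC1 is the calcium-binding troponin of slow and cardiac muscle. It stood at 119 in DMSO and 327, 447, 999 and 6442 after 2, 6, 24 and 72 h, a 53.4-fold difference. Each column of TNNC1 was above the one before it. In the FOXO1 line TNNC1 was 178 and 203 in DMSO and at 72 h. TNNC2, its fast-muscle counterpart, stood at 43.0 in DMSO and 81.7, 94.0, 218 and 1453 after 2, 6, 24 and 72 h, and the inhibitory and tropomyosin-binding fast troponins TNNI2 and TNNT3 went from 1089.7 to 3902 and from 84.0 to 1170.0. The slow forms TNNI1 and TNNT1 were already well covered in DMSO, at 21510.0 and 18820.0, and reached 75499 and 56378. Genes of both the slow and the fast troponin sets were therefore higher. ACTC1, cardiac alpha-actin and the actin of embryonic skeletal muscle, was 27052 in DMSO and 43591, 48207, 95701 and 135454 after 2, 6, 24 and 72 h. Adult skeletal actin, ACTA1, remained under the minimum mean at 21.0 and 66.8. Tropomyosins TPM1 and TPM2 were at log2 1.95 and 1.34, the nucleator LMOD3 at 3.38 and the pointed-end cap TMOD1 at 1.60. Not past 2-fold were nebulin, NEB (0.70), TPM3 (0.10) and the cardiac TNNI3 (-0.55).

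Thick filament genes were higher for 11 of 12 measured members (median 3.06). MYH7B reached the minimum mean only through the 72 h column, and without it 10 of 11 were higher (median 3.51). The developmental myosin heavy chains MYH3 (embryonic) and MYH8 (perinatal) went from 163 to 4952 and from 206 to 2371. MYH7, of slow fibres, went from 78.5 to 1212 and MYH2, of fast oxidative fibres, from 81.6 to 328. The adult fast myosins MYH1 and MYH4 were under the minimum mean, at 4.34 and 1.08 normalised counts at 72 h. The higher heavy chains were thus the developmental, slow and oxidative ones. These genes are close copies of each other, and the sources used here do not give how the deposited counts divide reads among them, so their separate values are uncertain. Among the light chains MYLPF, the fast regulatory form, was 1444 in DMSO and 2273, 3024, 9110.4 and 31275 after 2, 6, 24 and 72 h. MYL1 went from 57.9 to 1677 and MYL4, the embryonic and atrial light chain, from 2119.8 to 12834. MYL2 and MYL3, light chains of slow and cardiac muscle, were under the minimum mean, at 3.31 and 0 normalised counts at 72 h. Among myosin-binding proteins MYBPH was 37.6 in DMSO and 78.5, 84.2, 331 and 1945 after 2, 6, 24 and 72 h, a 49.2-fold difference, and MYBPC2 was at log2 1.56. MYLK2, a skeletal myosin light chain kinase, was at 0.76 and was the measured member not past 2-fold.

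Z-disc and M-band genes, which anchor the filaments, were higher for 18 of 24 measured members (median 2.25). ABLIM3, MYOM3, MYOZ1 and XIRP2 reached the minimum mean only through the 72 h column, and without them 14 of 20 were higher (median 1.94). MYOM3, an M-band protein, had the largest increase of the named genes on the log2 scale. It stood at 5.20 in DMSO and 8.37, 4.61, 38.1 and 501 after 2, 6, 24 and 72 h, so nearly all of its 72 h level came after 24 h. Its highest untreated library held 0.409 CPM, against 16.4 in the 72 h column. MYOM1, another myomesin, went from 57.2 to 536, while MYOM2, the form of mature fast fibres, went from 62.8 to 96.9. Z-disc members ABLIM3, MYPN, LDB3 and MYOZ1 were at log2 5.03, 4.57, 3.09 and 3.07, and the Z-disc actinin ACTN2 at 2.53. XIRP1 and XIRP2, actin-binding repeat proteins, were at 2.46 and 4.01. Desmin, DES, the intermediate filament that ties Z-discs together, went from 18823 to 58739. The giant protein titin, TTN, was level, at log2 -0.03, and filamin C, FLNC, was at 0.32.

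Genes that fold and assemble the sarcomere were higher for 9 of 12 measured members (median 2.45, or 1.74 after a correction for transcript length and GC content). UNC45B, the myosin chaperone, was 40.6 in DMSO and 81.0, 110.0, 384 and 2039.9 after 2, 6, 24 and 72 h, and SMYD1, a methyltransferase that works with it, was 164 in DMSO and 159, 271, 859 and 1772 after 2, 6, 24 and 72 h. HSPB3, one of the small heat shock family in muscle, went from 18.2 to 1011 and TRIM54, a ubiquitin ligase of the sarcomere, from 32.1 to 679.9. KBTBD10 and KBTBD5, Kelch proteins that stabilise thin filament proteins, were at log2 2.60 and 2.72. HSPB7 was the member that was lower, at -1.03. FBXO32, the atrophy-linked ubiquitin ligase atrogin-1, was at 2.30. Its partner in atrophy TRIM63 was under the minimum mean, at 8.15 in DMSO and 149 at 72 h.

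Excitation-contraction coupling genes, which link the membrane signal to calcium release, were mixed. Of 15 measured, 6 were higher and 2 lower (median 0.87). CASQ2, the cardiac and slow calcium store protein, was 75.5 in DMSO and 134, 96.8, 261 and 1510.1 after 2, 6, 24 and 72 h, while the fast form CASQ1 was under the minimum mean at 27.5 at 72 h. The voltage sensor CACNA1S went from 78.0 to 596, the release channel RYR1 from 3252 to 10278 and the triad protein JPH2 from 806 to 2541. RYR3, the release channel of immature muscle, went the other way, from 1354 to 507, as did the muscle sodium channel SCN4A, from 4168 to 862. The calcium pumps ATP2A1 and ATP2A2 were at log2 0.91 and -0.12. SRL, a calcium-binding reticulum protein, went from 71.8 to 531 in the fusion line but stood at 3814 in DMSO in the FOXO1 line, which marks a difference of the lines before dTAG.

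At the neuromuscular junction 3 of 10 measured genes were higher (median 0.60). They were DOK7, an activator of the receptor kinase MUSK, at log2 1.97, ACHE, acetylcholinesterase, at 1.88, and CHRNG, the fetal subunit of the acetylcholine receptor, at 1.49. CHRNG reached its level by 24 h, with 1214 at 24 h and 1230.3 at 72 h. The adult subunit CHRNE was under the minimum mean, at 50.9 and 25.6, and CHRNA1 was at 0.17.

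Membrane fusion and costamere genes were higher for 6 of 20 measured members (median 0.38). TMEM8C, also called myomaker, is the membrane protein that lets myoblasts fuse, and it was 71.1 in DMSO and 88.6, 91.3, 277 and 619 after 2, 6, 24 and 72 h. Among the members of the complex that links dystrophin to the membrane, SGCD and SNTB1 were at log2 1.45 and 1.39, and dystrophin itself, DMD, was at -0.68. CAV3 and MURC, of muscle caveolae, were at 1.35 and 1.31.

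Energy genes were higher for 4 of 11 measured members (median 0.63). CKM, muscle creatine kinase, was 51.4 in DMSO and 73.1, 66.5, 174 and 1046 after 2, 6, 24 and 72 h, and CKB, the brain form, was 2795 in DMSO and 3195, 5365, 9215 and 12182 after 2, 6, 24 and 72 h. In the FOXO1 line CKM stood at 428 and 557, above the DMSO level of the fusion line in both columns. Myoglobin, MB, reached its 72 h level by 24 h, with 29.5 in DMSO, 436 at 24 h and 433 at 72 h, and the fatty acid carrier FABP3 went from 117 to 1031. The 72 h level of MB, 14.1 CPM, was just above the highest untreated library (13.8). The mitochondrial creatine kinase CKMT2 was under the minimum mean, at 3.57 normalised counts in DMSO and 2.19 at 72 h. Of 30 genes of the respiratory chain, 28 were above 0 on the log2 scale but none was past 2-fold (median 0.39, or 0.23 after the length and GC correction), led by UQCRB at 0.68.

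**Figure D3:**
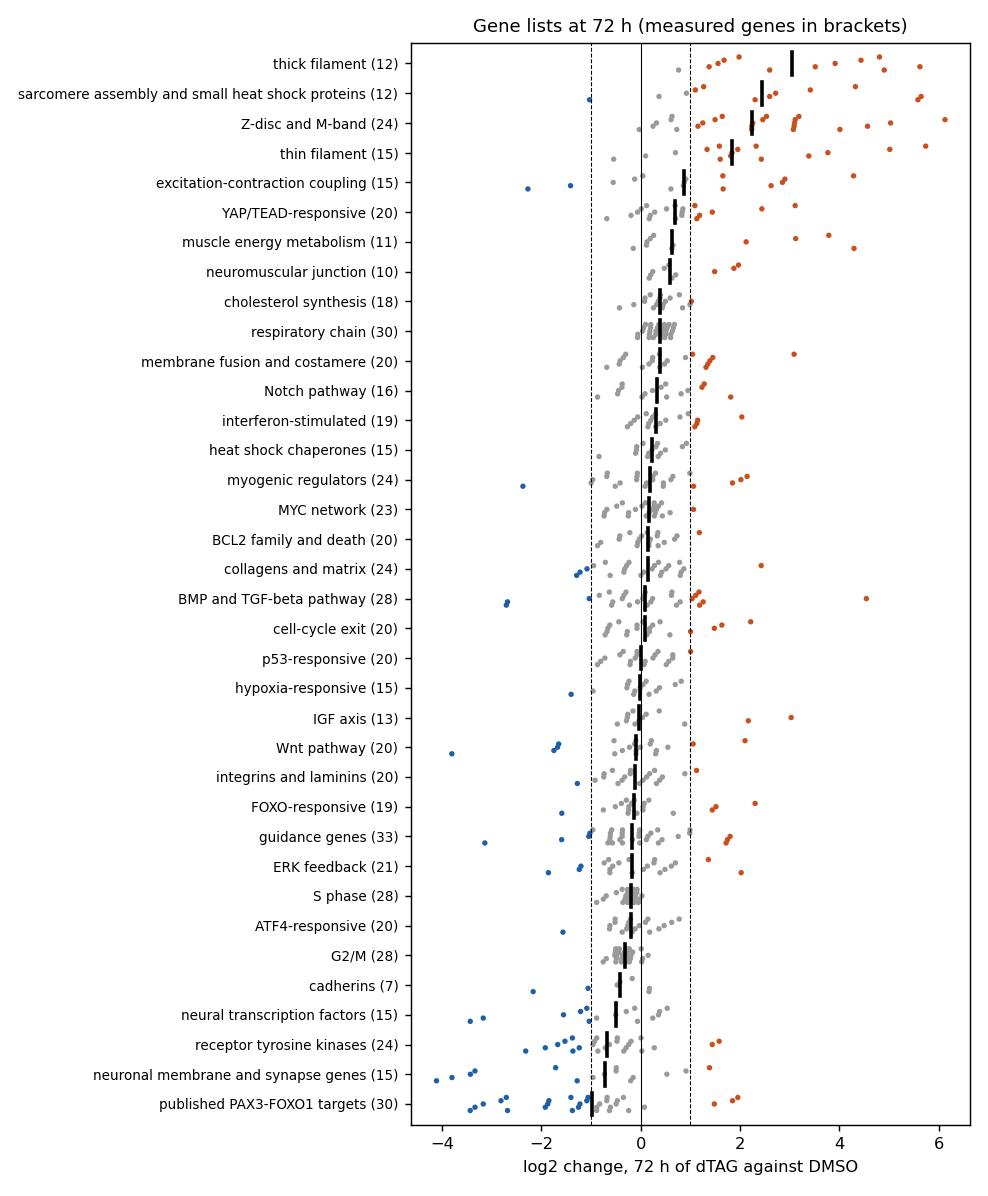
Log2 change at 72 h against DMSO (x axis) of every measured gene of 36 lists, ordered by list median (black bars). Genes at least 2-fold higher are orange and those at least 2-fold lower are blue. The 4 sarcomere lists have medians of 1.84 to 3.06, and published fusion targets stand at the other end with -0.97.

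Regulators of myogenesis did not move as a block. Of 24 measured, 4 were higher and 1 lower (median 0.18). MYOG, myogenin, which drives terminal differentiation, was 9674 in DMSO and 14206, 20488, 29880.5 and 34842 after 2, 6, 24 and 72 h. Each column of MYOG was above the last, and it was 9401 and 11124 in the FOXO1 line. MEF2C, a MADS-box partner of the MYOD family, was 1983 in DMSO and 2097, 2349, 2894 and 8032 after 2, 6, 24 and 72 h. It was at log2 0.545 at 24 h, and most of its difference from DMSO came after that column. MEF2A and MEF2D were at log2 0.09 and 0.46. HDAC9, a class II deacetylase that binds MEF2 proteins, went from 104 to 465, and TCF4, an E-protein partner, was at 1.06. MYOD1 was at -0.68, the homeobox factor SIX4 at -0.67 and the transcriptional coactivator EYA1 at -0.97. MEOX1, a homeobox gene of the somite, was the member past 2-fold downwards, at 806 in DMSO and 423, 300.2, 219.9 and 154 after 2, 6, 24 and 72 h. MYF5 was listed at 0 in both columns, and PAX7 at 0.591 in DMSO and 0 at 72 h. Most of the list, 19 of 24, was within 2-fold.

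**Figure D4:**
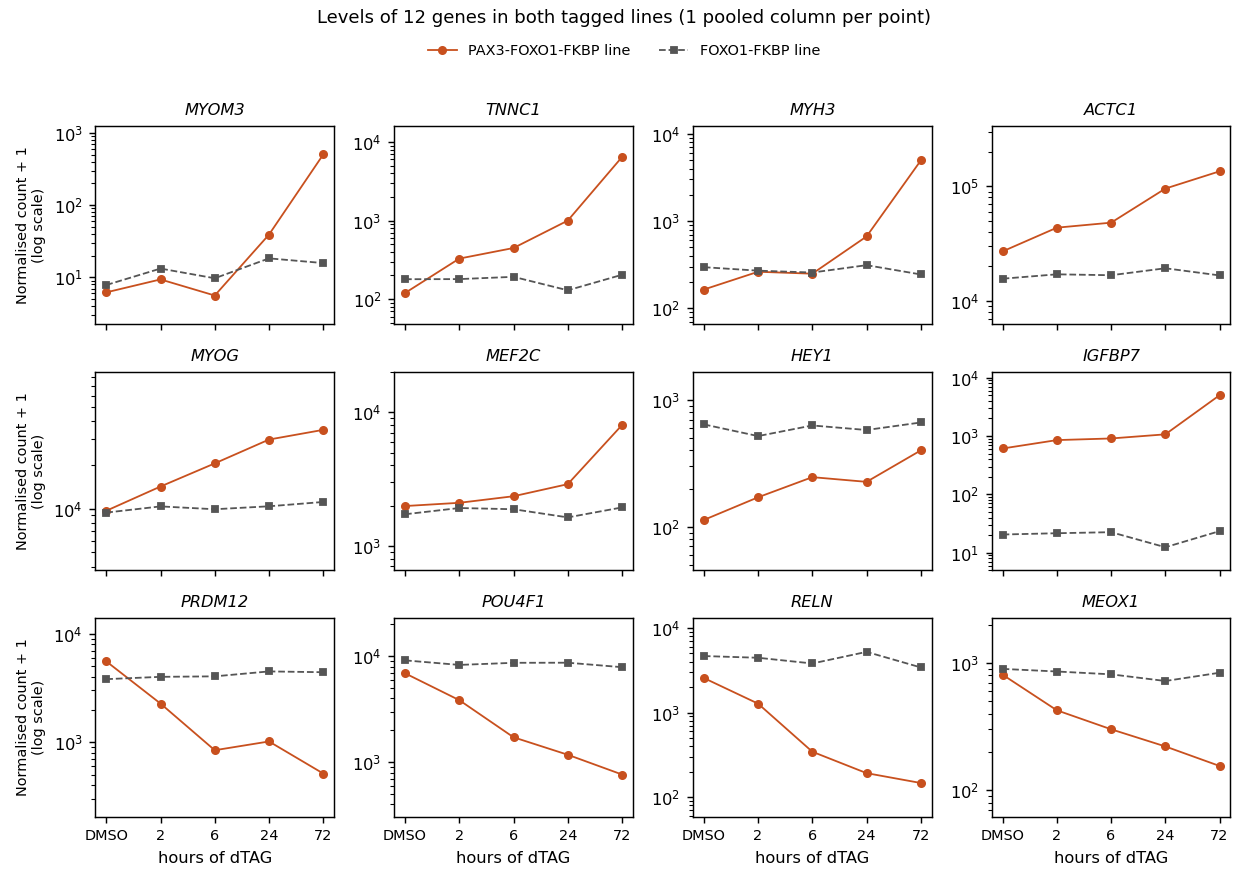
Normalised count plus 1 (y axis, log scale) of 12 genes in DMSO and after 2, 6, 24 and 72 h of dTAG (x axis, not to scale) in the PAX3-FOXO1-FKBP line (orange) and the FOXO1-FKBP line (grey), 1 pooled column per point. In the fusion line MEF2C and MYOM3 separate from DMSO mainly at 72 h, whereas PRDM12, POU4F1 and RELN are already lower at 2 h.

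Published targets of PAX3-FOXO1, collected from general knowledge, were lower for 15 of 30 measured members and higher for 3 (median -0.97). PRDM12, a zinc finger factor of sensory neurons, was 5562 in DMSO and 2269.7, 842, 1015 and 513 after 2, 6, 24 and 72 h, a 10.8-fold difference. POU4F1, a POU homeobox factor of sensory neurons, was 6914 in DMSO and 3856, 1721, 1177 and 766 after 2, 6, 24 and 72 h. NOS1, neuronal nitric oxide synthase, was 7217 in DMSO and 5121, 2487, 1594 and 1025 after 2, 6, 24 and 72 h. Most of the difference in normalised counts was present by 6 h in these 3 genes, and in the FOXO1 line they were at log2 0.21, -0.21 and 0.32. Secreted signals on the list were lower: the BMP antagonist GREM1 went from 3476 to 540.0, the ligand BMP5 from 1045 to 158 and FGF8 from 4008 to 1111. The receptors CNR1, PDGFRA, ALK and IL4R were at log2 -3.34, -1.92, -1.38 and -1.22. FGFR4 and MYCN, well known targets in this tumour, were short of 2-fold at -0.89 and -0.24, and MET and CXCR4 were at -0.63 and -0.83. On the other side RASSF4, GADD45G and MYOG were at 1.96, 1.48 and 1.85. The published targets were therefore not uniform, with 15 past 2-fold downwards, 3 past it upwards and 12 within it.

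Measured members of the neural lists were within 2-fold or lower, with 1 exception. Under the minimum mean were 15 of 30 neural transcription factors and 19 of 34 neuronal membrane and synapse genes. Among neural transcription factors 6 of 15 measured were lower and none higher (median -0.50), and besides PRDM12, POU4F1 and TFAP2B these were PROX1, INSM1 and ZIC2. TFAP2B, the neural crest factor AP-2 beta, was 1565 in DMSO and 914, 573, 579.9 and 736 after 2, 6, 24 and 72 h, lowest at 6 h and 24 h. PROX1 was 162 in DMSO and 55.8, 51.6, 131 and 53.9 after 2, 6, 24 and 72 h, and it was also lower in the FOXO1 line, at log2 -1.41. SOX11 was at 0.36 and ZIC1 at -0.06. Among neuronal membrane and synapse genes 6 of 15 were lower and 1 higher (median -0.73). RELN, the secreted guidance protein reelin, was 2557 in DMSO and 1272, 343, 191 and 146 after 2, 6, 24 and 72 h, a 17.3-fold difference, and SEZ6, a dendrite membrane protein, was 444 in DMSO and 270.5, 34.2, 23.6 and 39.4 after 2, 6, 24 and 72 h. TACR3, the neurokinin B receptor, was 396 in DMSO and 124, 51.3, 70.7 and 26.6 after 2, 6, 24 and 72 h, and in the FOXO1 line it was at log2 -1.13. The adhesion protein NRCAM and the sodium channel SCN9A were at -1.71 and -1.28. TUBB3, a tubulin of neurons, was the member that was higher, at 1.39.

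Outside any list, TMCO4, TSPAN8, DMBT1, PPP1R16B, LRRC10B and STATH were among the 10 named genes with the largest decreases. TMCO4, a transmembrane protein, was 1817 in DMSO and 1088, 273, 95.2 and 86.4 after 2, 6, 24 and 72 h. PPP1R16B, a regulator of protein phosphatase, was 1124 in DMSO and 663, 247, 166 and 77.6 after 2, 6, 24 and 72 h and LRRC10B, a leucine-rich repeat protein, was 1223 in DMSO and 627, 154, 156 and 106 after 2, 6, 24 and 72 h. In CPM TMCO4 was above all untreated libraries in DMSO and the other two were within them, while at 72 h all 3 were below all untreated libraries. STATH, which encodes a salivary protein, was 148 in DMSO and 81.5, 32.5, 0.965 and 0 after 2, 6, 24 and 72 h. With 0 counts at 72 h its difference is a bound, at least 47.7-fold lower against a floor of 3 counts in that column. The read-through name BIVM-ERCC5, which the naming rule leaves out, was also listed at 0 at 72 h, at least 46.9-fold lower than its 146 in DMSO, but it was at 0.0512, 20.7 and 203 at 2, 6 and 24 h. Among genes past 2-fold that the naming rule keeps, PEG10, a retrotransposon-derived gene, lost the most counts, from 29184 to 12717. The urea-cycle enzyme gene ASS1 was next, from 22928 to 7788. Genes not past 2-fold were not ranked by counts lost.

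Receptor tyrosine kinases, the entry points of growth factor signals, were lower for 7 of 24 measured members and higher for 2 (median -0.67). EPHA3 and EPHA7, ephrin receptors, went from 1708 to 342 and from 4392 to 1524, and FGFR2 from 1852 to 579.9. PDGFRA and PDGFRB, receptors of the same ligand family, went opposite ways: PDGFRA was 629 in DMSO and 343, 221, 212 and 165 after 2, 6, 24 and 72 h, and PDGFRB was 239 in DMSO and 311, 473, 409.8 and 717 after 2, 6, 24 and 72 h. ERBB3, a neuregulin receptor, was at log2 1.44 and EGFR at -1.37. Feedback genes of the ERK pathway downstream were lower for 3 of 21 measured members and higher for 2 (median -0.17). DUSP6, a phosphatase of ERK, was 4590.3 in DMSO and 2487, 1003, 846 and 1264 after 2, 6, 24 and 72 h, and the ETS factors ETV4 and ETV5 were at -1.24 and -1.20 at 72 h. SPSB1, 1 of the 2 higher genes, reached the minimum mean only through the 72 h column. The immediate-early factor EGR1 went from 361 to 1470.2. DUSP6 and EGR1 thus moved apart, and in both the 72 h column was above the 24 h column.

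The IGF axis had 2 of 13 measured genes higher and none lower (median -0.03, or 0.01 after the length and GC correction). IGFBP5, a binding protein made by differentiating myoblasts, was 996 in DMSO and 1105, 2488, 4687 and 4478 after 2, 6, 24 and 72 h, and IGFBP7 was 609.5 in DMSO and 849, 906, 1066 and 4991 after 2, 6, 24 and 72 h. IGFBP7 was nearly absent from the FOXO1 line, at 19.5 and 22.5. The ligand IGF2 was short of 2-fold, from 223735 to 413225, and its receptor IGF1R was at log2 -0.47.

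Notch pathway genes were higher for 3 of 16 measured members and lower for none (median 0.32). The higher ones were the bHLH genes HEY1, HES1 and HES6, with HEY1 at 112 in DMSO and 169.7, 245, 225 and 399 after 2, 6, 24 and 72 h. HEY1 was 639 and 662 in the FOXO1 line, above every column of the fusion line. The ligand DLL1 was at log2 0.81 and the receptors NOTCH1, NOTCH2 and NOTCH3 at 0.03, -0.46 and -0.38.

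Genes that answer to YAP and TEAD, the effectors of the Hippo pathway, were higher for 6 of 20 measured members and lower for none (median 0.70, and -0.26 in the FOXO1 line). ANKRD1, a stretch-responsive muscle protein that is also on the Z-disc list, was 260.0 in DMSO and 532, 433, 609 and 2259.8 after 2, 6, 24 and 72 h. The matrix-linked proteins CTGF and CYR61 were 662 in DMSO and 910.0, 741, 947 and 3598 after 2, 6, 24 and 72 h and 3103 in DMSO and 5319, 3836, 3669.5 and 8437 after 2, 6, 24 and 72 h respectively. For CYR61 the 2 h column was above those of 6 h and 24 h. TGFB2 was at log2 1.19, and YAP1 and TEAD1 themselves were at -0.06 and 0.28.

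In the BMP and TGF-beta pathway 6 of 28 measured genes were higher and 3 lower (median 0.09, or -0.02 when scaled by library totals). HFE2 is the gene of hemojuvelin, a co-receptor for BMPs found in muscle, and it was 9.74 in DMSO and 40.4, 32.3, 50.9 and 272 after 2, 6, 24 and 72 h. HFE2 reached the minimum mean only through the 72 h column, and without it 5 of 27 were higher. MSTN, myostatin, the secreted brake on muscle growth, went from 7441 to 17789 and the receptor ACVR2A, which binds it, from 1107 to 2499.7. GREM1 and BMP5 are the lower members named above, with RGMA, a relative of HFE2, at log2 -1.04. Among 20 measured Wnt pathway genes 2 were higher and 4 lower (median -0.10). LGR5, an R-spondin receptor, was 489 in DMSO and 199, 91.0, 81.3 and 33.2 after 2, 6, 24 and 72 h. The ligands WNT11, WNT3 and WNT5B were at -1.75, -1.67 and -1.65, while WNT9A went from 16.1 to 75.6 and WNT4 from 54.5 to 115. WNT9A reached the minimum mean only with the 72 h column. AXIN2, a feedback gene of the canonical pathway, was at 0.21.

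Cell-cycle genes were close to their DMSO level. None of 28 S phase genes and none of 28 G2/M genes was past 2-fold, though 27 and 24 of them were below 0 on the log2 scale (medians -0.19 and -0.31). MKI67, the antigen of cycling cells, was 14235 in DMSO and 11779, 12162, 13293 and 8429.5 after 2, 6, 24 and 72 h, and TOP2A, the mitotic topoisomerase, went from 24516 to 24679. The lowest value of either list was that of cyclin E1, CCNE1, at log2 -0.89. Genes of cell-cycle exit were higher for 4 of 20 measured members (median 0.09, or -0.03 when scaled by library totals). CDKN1A, the inhibitor p21, was 4737 in DMSO and 5671, 4773, 6289.9 and 9504 after 2, 6, 24 and 72 h, at the very edge of the size rule, and CDKN2B, the inhibitor p15, went from 83.8 to 264. GADD45B and GADD45G were at 2.21 and 1.48, and CCND1 and CCND2 at -0.44 and 0.18. At 72 h the sarcomere lists were thus far above DMSO while the proliferation lists were within 2-fold of it.

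Other states of the cell gave few large values, beside 3.47% higher and 3.02% lower over all measured genes. Interferon-stimulated genes were higher for 4 of 19 measured members (median 0.30), with IFIT1 from 39.8 to 169.5. BMF, a BCL2-family protein that promotes death, was at log2 1.18, alone of 20 measured genes of that family and of death receptors. Of 20 p53-responsive genes CDKN1A alone was past 2-fold (median -0.00). Of 19 FOXO-responsive genes 3 were higher and 1 lower (median -0.13), among them PDK4 at -1.59 and BCL6 at 1.51. TRIB3 at -1.57 was the only gene past 2-fold of 20 that respond to ATF4, NDRG1 at -1.40 that of 15 hypoxia genes, MYCL1 at 1.06 that of 23 in the MYC network, and PMVK at 1.02 that of 18 in cholesterol synthesis. MYC itself was at -0.73. None of 15 heat shock chaperones was past 2-fold.

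Matrix and adhesion genes stand beside shares of 3.47% higher and 3.02% lower over all measured genes. Of 24 measured collagens and matrix genes 1 was higher (4.17%) and 3 lower (12.5%), with a median of 0.14. The basement membrane collagens COL4A1 and COL4A2 went from 10978 to 4704 and from 22711 to 9285, fibronectin, FN1, from 11089 to 5238, and the fibrillar collagen COL1A1 from 289 to 1561. Of 20 integrins and laminins ITGA3 was higher and ITGB8 lower (median -0.11, or 0.02 after the length and GC correction). That is 5% each way, near the shares over all measured genes. Among 7 cadherins CDH6 and CDH3 were lower, at log2 -2.17 and -1.06, and CDH15, M-cadherin of myoblasts, was at 0.17. Among 33 guidance genes 3 were higher and 4 lower (median -0.17): PLXNA4, a semaphorin receptor, was 797 in DMSO and 487, 282, 109 and 88.8 after 2, 6, 24 and 72 h, and the ephrin EFNB2 was at -1.59 while EFNA1 was at 1.80.

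Markers of other cell types were mostly under the minimum. Counted were 6 of 16 genes of the B lineage, 3 of 24 leukocyte and myeloid genes, 3 of 14 endothelial, 4 of 17 epithelial, 4 of 12 fibroblast and 6 of 21 fat, bone and cartilage genes. The summed normalised counts of the first 3 lists went from 2938 to 665, 3179.8 to 1493 and 4259.91 to 2822. Those of the last 3 went from 967 to 788, 19429 to 27744 and 14954 to 8653. Of the 6 sums 5 were thus lower at 72 h. FCRLA and LAPTM5, given below, carried most of the fall of the B lineage and leukocyte sums respectively. The log2 medians of the measured members were 0.08, -0.89, -0.65, -0.00, 0.26 and -0.71 in the same order. The first 2 medians include members at or under 3 normalised counts in both compared columns. CD79B, of the B lineage list, reached the minimum mean only through the 2 h column. These 2 medians therefore cannot show whether the B lineage and leukocyte lists were level. The sums do not describe the lists as groups either. In the DMSO and 72 h columns the B-cell gene IGJ was listed at 0, and CD74 and LCP1 of leukocytes were at or under 3 normalised counts. Others were not near 0. At least 10 normalised counts were held by 4 of the 16 B lineage genes in DMSO and by 4 at 72 h. Of the 24 leukocyte and myeloid genes, 7 held as many in DMSO and 6 at 72 h. PAX5 was at 38.3 in DMSO and 0.558 at 72 h, and CD68 at 35.5 and 40.5. Some genes on these lists were well covered: FCRLA, a B-lineage gene, went from 2696 to 392, LAPTM5 from 2505 to 1071, the endothelial gene VWF from 165 to 48.1, the keratin KRT18 from 579 to 283 and the fibroblast collagen COL3A1 from 18163 to 25848. The FOXO1 line held FCRLA at 2154 and 2205 as well. The part of such genes in the 72 h values was not tested.

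Set beside the FOXO1 line, the fusion line at 72 h had 333 of 11766 genes (2.83%) with a log2 change at least 1 above that of the FOXO1 line and 252 (2.14%) at least 1 below it. Higher in both lines were 2 genes, which are 0.60% of the genes measured in both lines that were higher in the fusion line (by coincidence also 333) and 50% of 4 in the FOXO1 line. Lower in both were 14, which are 4.46% of 314 in the fusion line and 32.6% of 43 in the FOXO1 line. These overlaps are to be read beside the shares over all genes measured in each line. In the FOXO1 line 0.0501% were higher and 0.367% lower, and in the fusion line 3.47% and 3.02%. Those 14 included TACR3 and PROX1, the coactivator NCOA2 and the zinc finger genes ZNF192, ZNF354C and ZNF550. Their 72 h values were thus past 2-fold in the line without a tagged fusion as well. MALAT1, a nuclear non-coding RNA, was 22804 in DMSO and 49331, 43422, 23629.9 and 65973 after 2, 6, 24 and 72 h in the fusion line and 42199 and 56166 in DMSO and at 72 h in the FOXO1 line. It was high at 2 h and 6 h and back near DMSO at 24 h.

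**Figure D5:**
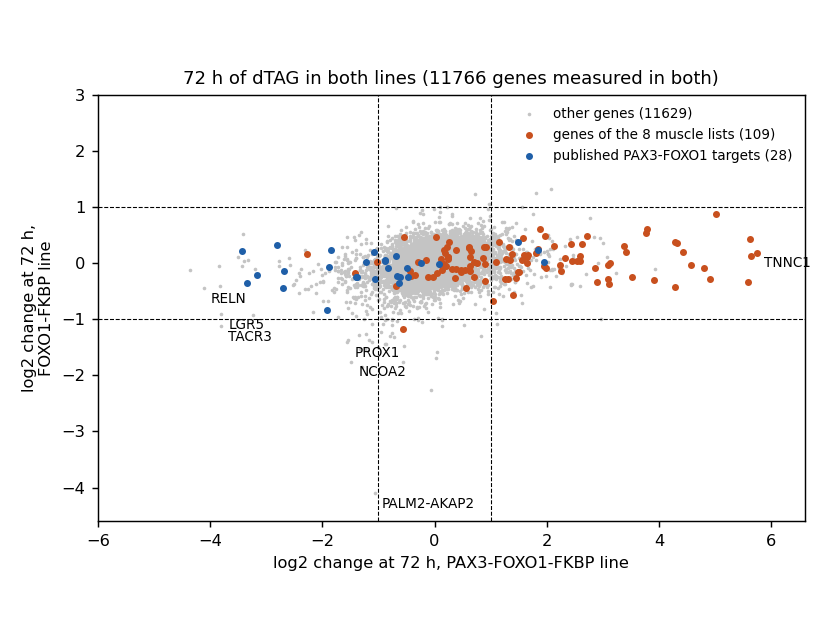
Log2 change at 72 h in the PAX3-FOXO1-FKBP line (x axis) and in the FOXO1-FKBP line (y axis) for the 11766 genes measured in both. Dashed lines mark 2-fold. Muscle genes (orange) spread along the x axis up to log2 5.74 (TNNC1) and stay near 0 on the y axis, and 14 genes are in the lower left field past both lines.

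Against the untreated libraries, 316 of 427 higher genes (74.0%) had a 72 h level, in CPM, above all 10, and the DMSO column was above all 10 for 67 of them (15.7%). Over all measured genes the 72 h column was above all 10 for 21.3% and the DMSO column for 24.5%. Of 372 lower genes 169 (45.4%) were below all 10 at 72 h and 7 (1.88%) in DMSO, against 14.1% of all measured genes below at 72 h and 8.36% in DMSO. Tables were normalised separately, so these levels are compared as a description. The higher and lower genes were picked by the same 72 h values, so their shares follow in part from that choice.

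Transcript length moved with the values. Over 11082 genes the log2 change at 72 h had a Spearman correlation across genes of -0.268 with the length of the longest transcript, and those at 2, 6 and 24 h had -0.304, -0.245 and -0.015. Higher genes had a median length of 3632 nt, lower genes 4845 nt and all measured genes 3792.5 nt. With the values corrected for length and GC content, 388 genes were higher and 303 lower, and the median of the 8 muscle lists was 1.36.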

How the data were processed

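RNA was sequenced from 30 samples in 15 groups of 2. The authors deposited estimated counts for the 2 time courses, with 1 column per condition and 74.4% of values not whole, per the file headers and values, so each column stands for 2 samples, and the labels do not state whether these were summed or averaged. The untreated libraries have whole read counts that the authors deposited as 1 column each. Tools listed in the submitters' processing notes are Bowtie2, Cuffdiff 2.1.1 and Trimmomatic 0.32, with the build hg19. The sources used here do not give their roles.

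Columns were scaled with TMM factors (edgeR 4.0.16, R 4.3.3) taken from genes that passed filterByExpr with a minimum count of 10. Log2 ratios used a prior count of 2. A gene with an exact 0 in some columns and 10 or more counts in all others was read as a failed estimate, which removed 41 genes. This rule also removes genes seen in a single column, such as MS4A1, and can remove a gene that fell to 0 at 72 h. With such genes kept, 430 were higher and 375 lower. The steps were tested on simulated data. Pooled columns allow no test of replicates, so none was run. DESeq2 1.42.0 gave alternative size factors. Length and GC came from GENCODE v29 by symbol, for 89.8% of measured genes. RefSeq promoters were matched by symbol. Gene names with dates in place of symbols (13) were counted but not named. Named are PAX3 and FOXO1 and, among genes past 2-fold, the 10 largest changes each way and the 6 largest gains and losses of counts. Both rankings leave out names of read-through, antisense, histone, ribosomal protein or LOC genes. Also named are up to 4 leading members of each list past 2-fold, or 2 where none was. The promoters are those of the muscle genes with the largest increases that hold the motif. Other members named are examples chosen after their values were seen. Members and lists were chosen with earlier results of these data known.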

Additional observations from a re-analysis of the deposited data

How the results depend on the processing

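No paired analysis was possible because the time-course columns are pooled and carry no replicate number, and for the same reason no replicate could be left out. Without a filter on low counts, the size rule was met upwards by 1040 genes and downwards by 759, and the difference of the lines was at least 1 for 1123 genes upwards and 866 downwards. With a minimum mean of 10, 661 genes met it upwards, and the difference of the lines reached 1 for 546 upwards and 416 downwards. These settings add genes of low counts. At that minimum the largest share of genes 2-fold apart within an untreated pair was 4.83% in place of 2.89%. The other counts of genes under DESeq2 size factors, library totals, a prior count of 10, isolated zeros kept and the length and GC correction stayed within 1.5 times the main count, and no gene named by the rule turned its direction while past 2-fold. Of the named genes past 2-fold, library totals left 5 of 121 under it (CDKN1A, IFI6, MYCL1, NES and PMVK) and the length and GC correction 7 of 118 (CDH3, CDKN1A, FN1, IFI6, ISG15, PMVK and TFAP2B). List medians changed sign for 9 lists under 1 or more settings. In 7 the main median was near 0. With a minimum mean of 10, the medians of leukocyte and myeloid markers went from -0.89 to 0.14 and of fat, bone and cartilage markers from -0.71 to 0.04. Depth limits genes of low counts: the difference of STATH at 72 h is a bound only. That of BIVM-ERCC5 is a bound as well, but its earlier columns fell and rose again, as given above. Its 0 at 72 h is therefore uncertain and cannot be put down to depth. What its 0 reflects was not tested.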

Other observations

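Gene groups outside the lists of the report also stood apart at 72 h, and they were put together after the values had been seen. Enzymes that build and trim heparan sulfate, the sulfated sugar chains that hold growth factors at the cell surface, were lower for 6 of 18 measured genes and higher for 1 (median -0.24). HS3ST3B1, a 3-O-sulfotransferase, stood at 252 normalised counts in DMSO, 71.6 at 2 h and 36.4 at 72 h. Its close relative HS3ST3A1 went from 563 to 179, the sulfotransferases NDST4 and NDST3 were at log2 -2.40 and -1.46, and HS3ST5 was the higher one at 1.29.

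Genes of the actin cytoskeleton and of smooth muscle were higher for 7 of 23 measured members and lower for none (median 0.78). FILIP1, a filamin-interacting protein, went from 28.0 to 455, NEXN, an actin-binding Z-disc protein, from 1118 to 8035 and TAGLN, transgelin, from 147 to 864. Of 12 measured cytokine genes 5 were higher and none lower, with IL17B from 55.7 to 631, LIF from 56.6 to 219 and IL34 from 56.6 to 238. Of 7 measured meiosis and germ-cell genes 3 were higher, and all 3 reached the minimum mean only through the 72 h column: the recombinase gene DMC1 from 9.34 to 176, SOHLH2 from 25.7 to 259 and STK31 from 26.5 to 122.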
